A study of Mus musculus with 18 samples.

Results

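The genes described here are the enzymes, transporters and regulators that carry glucose carbon from uptake through glycolysis, pyruvate oxidation and the tricarboxylic acid (TCA) cycle. They were chosen by symbol from a written list of the pathway, and all 44 were found among the 10597 genes listed in the deposited tables. Of these, 20 belong to glucose uptake and glycolysis to lactate, 9 to pyruvate entry and oxidation, and 15 to the TCA cycle and the malate-aspartate shuttle. The measurements came from the left ventricles of 9 male C57BL/6 mice aged 20 weeks, 4 wild type (hearts 1 to 4) and 5 mORF4/NBDY knockout (hearts 6 to 10). Neither genotype was given any treatment, and the sources used here do not say how the knockout was made, in which cells, or whether the animals were littermates. Every heart gave a poly-A RNA library, which measures transcript level, and a ribosome footprint library, which measures the mRNA fragments covered by translating ribosomes. Values are normalized reads per gene and library, and translational efficiency is the footprint value divided by the RNA value of the same heart.

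Glycolysis splits glucose into pyruvate in the cytosol, and lactate dehydrogenase interconverts pyruvate and lactate. Pyruvate enters mitochondria through the MPC1-MPC2 carrier and is turned into acetyl-CoA by the pyruvate dehydrogenase complex, which pyruvate dehydrogenase kinases switch off by phosphorylation. The TCA cycle oxidizes acetyl-CoA to supply reduced cofactors to the respiratory chain, and the malate-aspartate shuttle brings cytosolic reducing equivalents into mitochondria. The adult heart takes most of its energy from fatty acids, with glucose and lactate as further fuels, and many steps are run by muscle isozymes that have counterparts in other tissues.

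Depth over the listed genes was 11.2 to 12.4 M reads (M, 1000000 reads) in wild-type RNA libraries and 15.8 to 20.2 M in knockout ones, and 6.67 to 36.7 M and 22.9 to 40.8 M in footprint libraries. The labels name no batch, and since all knockout RNA libraries were deeper than all wild-type ones, genotype and any batch of RNA libraries cannot be told apart. Footprints of the targeted gene, Nbdy, fell in knockout to 7.78% of the wild-type mean (log2 fold change -3.45 ± 0.48, SE; adjusted p = 0.0191, limma), and its RNA fell by 0.59 on the log2 scale (adjusted p = 0.00246, limma). All 8 cardiomyocyte markers were present, summing to 2.12 to 2.43 M normalized RNA reads in wild type against 1.85 to 2.07 M in knockout, with 4 of 8 lower. Endothelial marker RNA summed to 13533 to 15549 and 10894 to 12777, with 4 of 5 lower. RNA of 4 of 5 skeletal muscle markers was listed and summed to 51772 to 93972 in wild type and 28633 to 44493 in knockout, and their footprints to 1312 to 2801 and 1287 to 3196. Of these 4 markers, 2 were lower in RNA. RNA of 2 of 3 atrial markers was listed and summed to 8435 to 13668 and 3254 to 4790, and their footprints to 1621 to 3883 and 1809 to 6978. Of these 2 markers, 1 was lower in RNA. In RNA, 1 of 5 fibroblast and 1 of 4 erythrocyte markers were higher, with 0 lower. Of 4 listed macrophage and leukocyte markers 2 were higher and 1 lower, and of 4 smooth muscle and pericyte markers 1 and 1. The 1 listed adipocyte marker was lower. Over all genes tested, 24.3% were higher and 25.1% lower in RNA. Among those with a mean of at least 1000 RNA reads, 842 of 2153 were lower. No listed marker was at 0 in all libraries, and the part of these shifts in the results below was not tested. In whole ventricle, fewer cells of a type and less RNA per cell cannot be told apart.

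RNA of the pathway moved in both directions. Of the 44 members, 17 were higher and 14 lower in knockout (limma, Benjamini-Hochberg adjusted p below 0.05 over all genes), so 70.5% were called against 49.4% of all genes tested (24.3% higher, 25.1% lower). These genes are abundant in heart, and among all genes with a mean of at least 1000 normalized RNA reads 63.7% were called. The members' median log2 fold change was 0.02, against 0.01 over all genes and -0.08 over those abundant genes. The members' range ran from -0.83 for Pdk2 to 0.71 for Slc2a4. The median of the absolute value was 0.32 for the members and 0.26 over all genes. Hearts of the 2 genotypes did not overlap for 26 members (59.1%, against 40.5% of all genes, with no share computed for abundant genes). Added up, the members' RNA came to 0.534 ± 0.00907 M normalized reads in wild type (SD, n = 4) against 0.535 ± 0.0234 M in knockout (SD, n = 5), with overlapping hearts. The sum of the pyruvate step differed without overlap, at 0.0708 ± 0.00208 M in wild type (SD, n = 4) against 0.0579 ± 0.00283 M in knockout (SD, n = 5), while the glycolysis and TCA sums overlapped. As a percent of the RNA signal of all listed genes, every sum was separate. The members took 3.38% in wild type and 3.74% in knockout, glycolysis 1.37% and 1.53% and the TCA step 1.56% and 1.81%. These were higher in knockout, while the pyruvate step was lower, at 0.448% and 0.404%. The total itself was lower in knockout, at 14.0 to 14.7 M normalized reads against 15.5 to 16.5 M in wild type. Whether the members' own sum rose thus depends on the scale. It overlapped between genotypes in deposited normalized reads and was separate as a share of the total. With quantile normalization in place of the deposited scaling the split was 21 higher and 9 lower and the range ran from -0.72 to 0.77, so the balance of directions depended on scaling. That scaling lost the calls of Slc2a1, Hk1, Pfkp, Pgam2, Mpc1 and Dlst (adjusted p between 0.0504 and 0.551, limma) and added Pdhb, Ogdh, Suclg1, Fh1 and Mdh2 as higher.

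**Figure D1:**
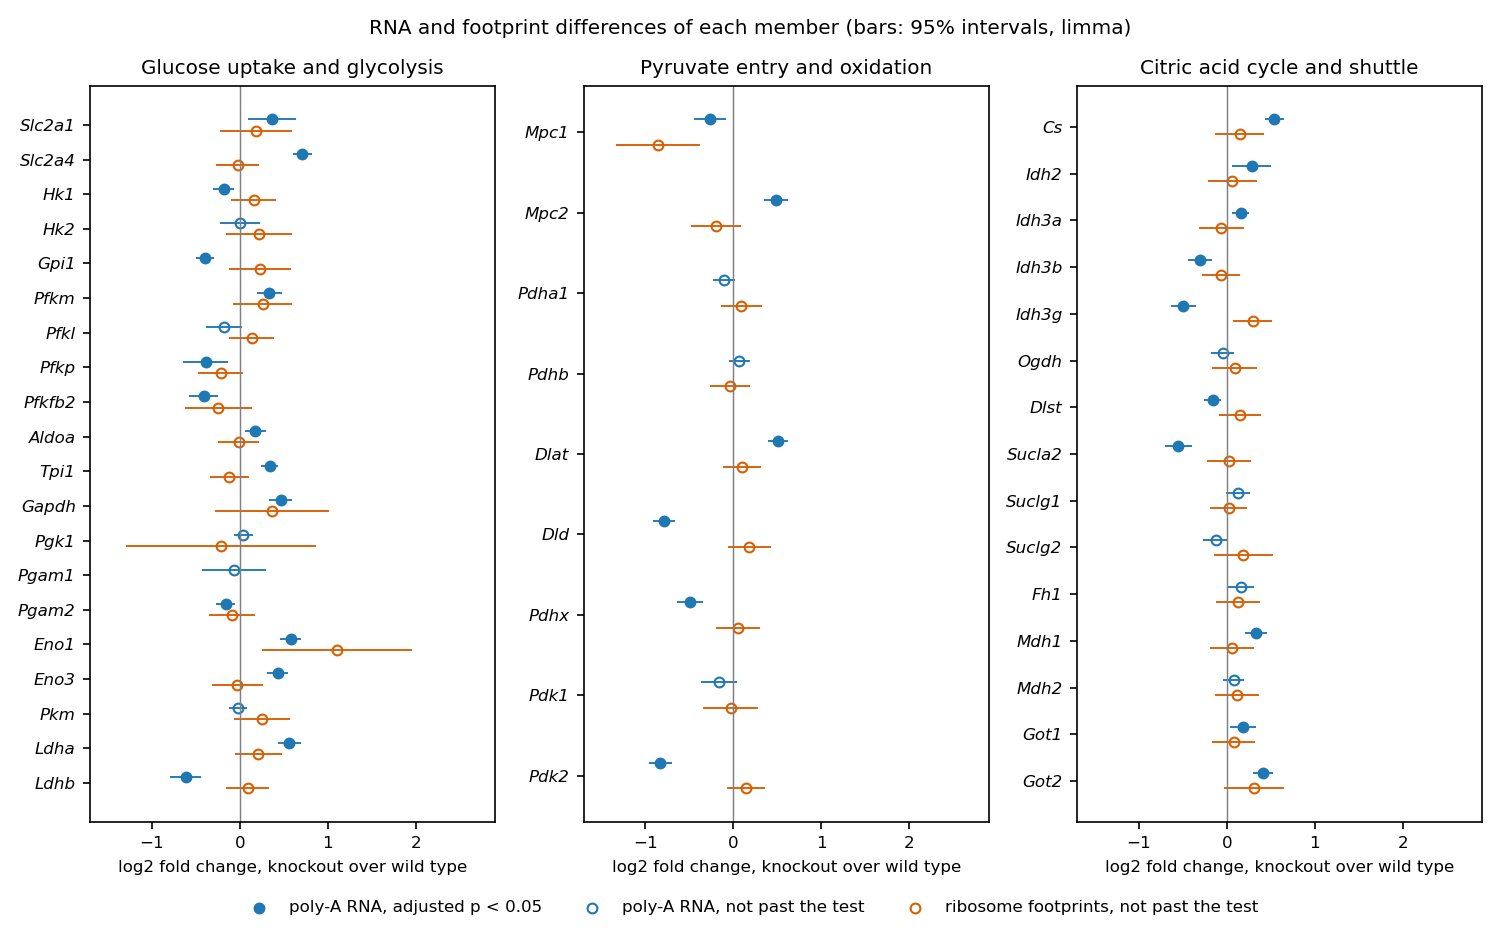
Log2 fold change, knockout over wild type, of each member in poly-A RNA (blue) and ribosome footprints (orange), with 95% limma intervals, in a panel per step; filled points passed an adjusted p of 0.05. RNA points spread from -0.83 to 0.71 with 31 of 44 filled, while the 43 footprint points have wider intervals and none is filled.

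In glycolysis, 9 of 20 members rose in RNA, 6 fell and 5 did not pass. The share called was 75%, against 49.4% of all genes and 63.7% of genes with a mean of at least 1000 RNA reads. The glucose transporter of insulin-responsive muscle, Slc2a4 (GLUT4; chromosome 11, 69942286 to 69948216, GRCm38 as all positions here), had the largest rise of the pathway. Its RNA was 3011, 2961, 3212 and 3071 in wild-type hearts and 5250, 4584, 5059, 5198 and 4982 in knockout hearts. All knockout hearts lay above all wild-type hearts, and the log2 fold change was 0.71 ± 0.05 (SE; adjusted p = 1.21e-06, limma). Footprints of Slc2a4 were 17204, 19269, 17647 and 14625 in wild type and 20439, 15654, 15528, 15985 and 16844 in knockout. The footprint groups overlapped, at a log2 fold change of -0.03 ± 0.12 (SE; adjusted p = 0.974, limma), with knockout heart 6 the highest of the 9. Slc2a1 (GLUT1), the basal glucose transporter, was higher in RNA at 0.36 ± 0.13 (SE; adjusted p = 0.0320, limma), a call lost at adjusted p between 0.0503 and 0.0931 without any of 6 single hearts (wild-type 1 or 2, knockout 7, 8, 9 or 10).

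The enzymes between glucose and pyruvate did not move as a block. Gpi1, glucose-6-phosphate isomerase (chromosome 7, 34201327 to 34230336), had 18048, 18102, 18624 and 18842 RNA reads in wild type and 13819, 13351, 14259, 13688 and 14907 in knockout. This fall of 0.39 on the log2 scale (adjusted p = 4.02e-05, limma) separated the genotypes in every heart. Gpi1 footprints were 6813 to 11557 in wild type and 9269 to 14892 in knockout and overlapped. Pfkfb2, the heart form of the enzyme that makes the phosphofructokinase activator fructose 2,6-bisphosphate (chromosome 1, 130689043 to 130729253), fell by 0.41 in RNA (adjusted p = 0.000838, limma), from 1157 to 1345 reads down to 845 to 1056. Its footprints were 506 to 749 and 433 to 683, with overlap. Tpi1, triosephosphate isomerase (chromosome 6, 124810586 to 124814158), rose from 6598 to 7173 RNA reads in wild type to 8486 to 9225 in knockout, a log2 fold change of 0.34 ± 0.05 (SE; adjusted p = 9.87e-05, limma). Tpi1 footprints were 20204 to 23502 and 17313 to 21921. The gene overlaps Spsb2, and the RNA kit does not mark strand, so reads of the pair cannot be told apart.

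Phosphofructokinase showed a split among its 3 genes. RNA of Pfkm, the muscle form, was higher by 0.33 (adjusted p = 0.00135, limma), and RNA of Pfkp, the platelet form, was lower by 0.39 (adjusted p = 0.0164, limma), while Pfkl, the liver form, differed by -0.18 without passing (adjusted p = 0.130, limma). The Pfkp call was lost without wild-type heart 2 (adjusted p = 0.0548), and Pfkp overlaps Pitrm1. The remaining RNA calls of the step were smaller or rest on genes treated below: Aldoa (aldolase) rose by 0.18, Gapdh by 0.46 and Eno3 by 0.43, while Hk1 (hexokinase) fell by 0.18 and Pgam2 (muscle phosphoglycerate mutase) by 0.16. The Aldoa call was lost without wild-type heart 4 (adjusted p = 0.0507) and the Pgam2 call without wild-type heart 3 (adjusted p = 0.0519). Hk2, the insulin-regulated hexokinase, and Pkm, pyruvate kinase, differed by 0.00 and -0.02 in RNA, with overlapping hearts.

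Lactate dehydrogenase changed in opposite directions in its 2 subunit genes. Ldha (chromosome 7, 46842274 to 46855627), the subunit that dominates in fast muscle, had 4546, 5193, 4724 and 5170 RNA reads in wild type and 6845, 6978, 7832, 7671 and 6934 in knockout. Ldhb (chromosome 6, 142490249 to 142507957), the subunit that dominates in heart, had 40303, 44542, 44160 and 48472 in wild type and 25924, 26153, 32149, 30518 and 30127 in knockout. Neither gene had overlapping groups, with log2 fold changes of 0.56 ± 0.06 for Ldha (SE; adjusted p = 1.98e-05, limma) and -0.62 ± 0.08 for Ldhb (SE; adjusted p = 6.72e-05, limma). The log2 ratio of Ldhb to Ldha RNA was 3.10 to 3.23 in wild-type hearts and 1.91 to 2.12 in knockout hearts, a difference in means of -1.18. Read ratios of 2 genes also carry their lengths, so only the difference between genotypes is read. In footprints the same log2 ratio was 1.73 to 1.96 in wild type and 1.62 to 1.89 in knockout, a difference of -0.12 with overlapping hearts. Ldhb footprints themselves were 30582 to 39895 and 34585 to 42364, and Ldha footprints 7883 to 11906 and 10581 to 13256. The annotation names 3 pseudogene copies of Ldha and 1 of Ldhb.

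Pyruvate entry and oxidation held the largest falls of the pathway, with 2 of 9 members higher and 4 lower in RNA. The share called, 66.7%, was near the 63.7% of genes with a mean of at least 1000 RNA reads (49.4% of all genes). Pdk2 (chromosome 11, 95026258 to 95041371), a kinase that inhibits pyruvate dehydrogenase, had 15147, 14761, 15712 and 16427 RNA reads in wild type. In knockout hearts Pdk2 RNA was 7824, 8703, 8691, 9163 and 9336. The genotypes were far apart, with a log2 fold change of -0.83 ± 0.06 (SE; adjusted p = 1.15e-06, limma). Pdk2 footprints were 14234, 13868, 14507 and 14303 in wild type and 14645, 17674, 15830, 16319 and 14367 in knockout. Here the groups overlapped through knockout heart 10, and the log2 fold change of 0.14 ± 0.10 (SE; adjusted p = 0.854, limma) had the opposite sign to the RNA change. Pdk1, another kinase of the family, differed by -0.16 in RNA and -0.03 in footprints without passing either test.

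The pyruvate dehydrogenase complex is built from E1 (Pdha1, Pdhb), E2 (Dlat), E3 (Dld) and the E3-binding protein (Pdhx), and its RNAs diverged. Dlat (chromosome 9, 50634633 to 50659780) had 4151, 4141, 4265 and 3681 RNA reads in wild type and 5538, 5630, 5720, 5834 and 6111 in knockout. Dld (chromosome 12, 31331562 to 31351471), which also serves the oxoglutarate dehydrogenase complex, had 12228, 13842, 13755 and 14130 in wild type and 7637, 7355, 8340, 8129 and 7561 in knockout. Pdhx (chromosome 2, 103021055 to 103073513) had 4889, 4949, 4515 and 4156 in wild type and 3079, 3608, 3153, 3089 and 3479 in knockout. None of the 3 had overlapping groups. Dlat rose by 0.51 ± 0.05 on the log2 scale (SE; adjusted p = 1.65e-05, limma), Dld fell by 0.79 (adjusted p = 1.31e-06, limma) and Pdhx fell by 0.50 (adjusted p = 0.000119, limma). Pdha1 and Pdhb, the E1 subunits, differed by -0.11 and 0.07 and did not pass (adjusted p = 0.127 and 0.312, limma). Footprints of all 5 subunits overlapped between genotypes, with log2 fold changes from -0.04 for Pdhb to 0.18 for Dld. The log2 ratio of Dld to Dlat RNA was 1.56 to 1.94 in wild type and 0.31 to 0.54 in knockout, a difference of -1.30. The footprint ratio was 0.46 to 0.74 in wild type and 0.64 to 0.85 in knockout, a difference of 0.08.

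The 2 subunits of the mitochondrial pyruvate carrier also diverged in RNA. Mpc2 (chromosome 1, 165461260 to 165481218) had 2460, 2130, 2276 and 2025 RNA reads in wild type and 3087, 2910, 3206, 3204 and 3106 in knockout, a log2 fold change of 0.48 ± 0.06 (SE; adjusted p = 5.48e-05, limma) without overlap. Mpc1 (chromosome 17, 8283787 to 8297667) fell by 0.27 (adjusted p = 0.0185, limma), with wild-type hearts at 5090, 5279, 5676 and 5844 and knockout hearts at 3916, 4154, 5124, 5057 and 4568. Knockout heart 8 overlapped wild-type heart 1, and the call did not hold without wild-type heart 3 or 4 (adjusted p = 0.0514 and 0.0553). Mpc1 also had the smallest unadjusted footprint p of the pathway. Its footprints were 1692, 2292, 1668 and 2060 in wild type and 691, 710, 1292, 1247 and 1648 in knockout, so every knockout heart lay below every wild-type heart. The log2 fold change of -0.86 ± 0.22 (SE) did not pass, at an adjusted p of 0.851 in limma. The annotation names 1 pseudogene copy of Mpc1. For Mpc1 over Mpc2 the log2 ratio differed by -0.75 in RNA and -0.66 in footprints, and of the 14 pairs compared it was the only one in which the genotypes were separate in both assays. In RNA alone 9 of the 14 were separate, all lower in knockout as written. The pairs were chosen after seeing the data, and the sign depends on which gene is written first. The shared direction is therefore not a result. Single genes were separate in RNA for 40.5% of all genes tested, and no such share was computed for pairs. The 5 that overlapped were Slc2a4 over Slc2a1, Hk2 over Hk1, Pfkm over Pfkl and Pfkm over Pfkp, at 0.35, 0.18, 0.51 and 0.72, and Pgam2 over Pgam1 at -0.09.

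**Figure D2:**
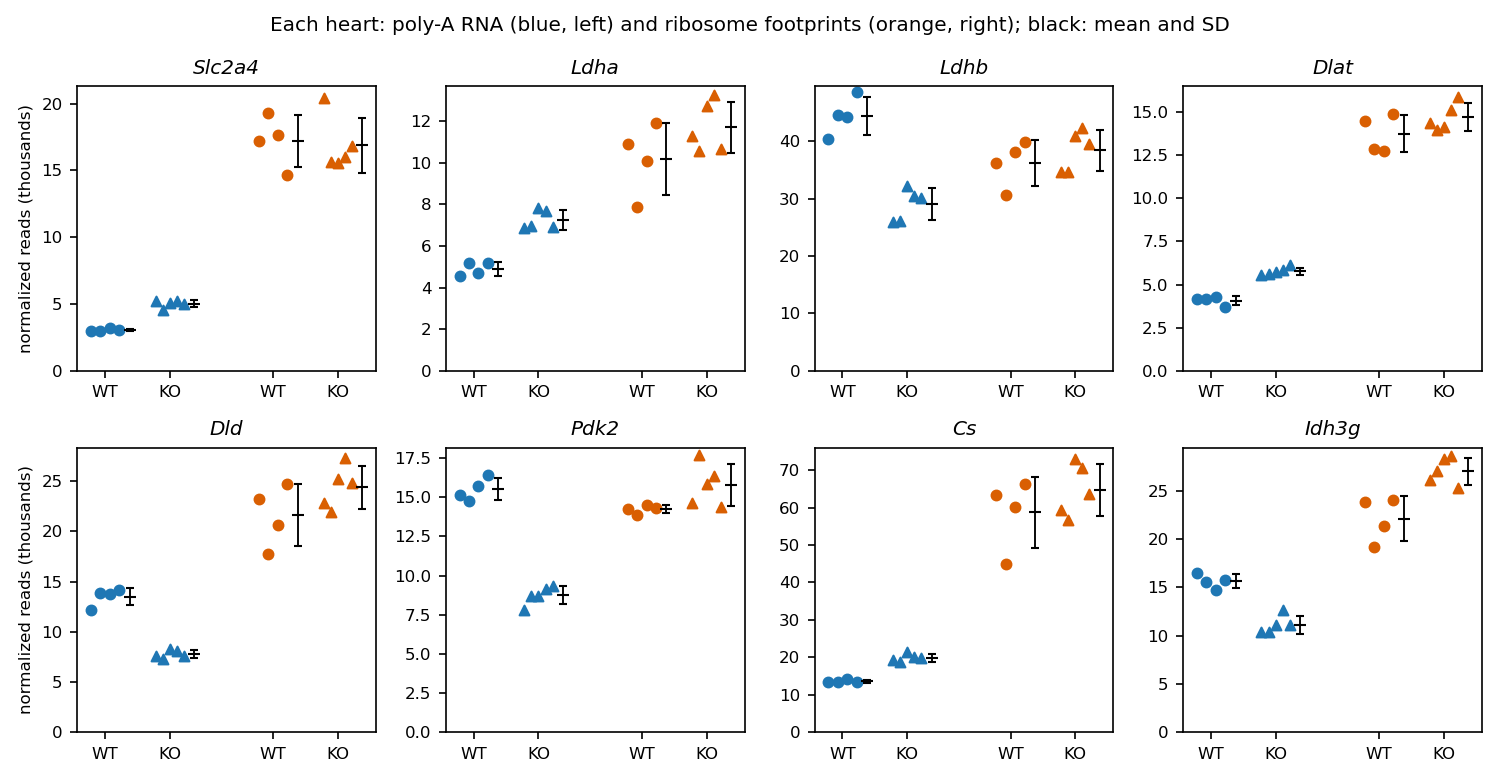
Normalized reads (axis in units of 1000 reads, from 0) for 8 members, with circles for wild-type and triangles for knockout hearts, RNA in blue and footprints in orange, and black marks for the mean and SD. The RNA points of the genotypes do not overlap in any of the 8 panels, while the footprint points overlap in all but Idh3g, where knockout lies above wild type.

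Promoter sequence was examined for E-box and hypoxia-response letters, since glycolytic genes are textbook targets of HIF-1, MYC and USF, which bind CACGTG or ACGTG. Windows of 300 bases around the first listed start site in RefSeq (GRCm38.p6) matched 42 members. CACGTG, searched on both strands and itself containing ACGTG, was in 4 of them (9.52%, against 7.24% of all 27025 promoters): Ldha, Pfkm, Pfkfb2 and Pdk2. These are shown because the 4 genes share the letters but moved in opposite directions in RNA, Ldha and Pfkm up and Pdk2 and Pfkfb2 down. The Ldha windows are chr7:46845632-46845691 and chr7:46845729-46845788 on the plus strand, the Pdk2 window is chr11:95041465-95041524 on the minus strand, the Pfkfb2 window is chr1:130715822-130715870 on the minus strand and the Pfkm window is chr15:98092426-98092485 on the plus strand, each written 5′ to 3′ with CACGTG in capitals.
Ldha, first: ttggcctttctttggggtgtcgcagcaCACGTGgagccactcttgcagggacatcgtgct
Ldha, second: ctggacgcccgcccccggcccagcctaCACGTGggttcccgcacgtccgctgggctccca
Pdk2: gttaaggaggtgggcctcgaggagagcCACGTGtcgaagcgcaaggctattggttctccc
Pfkfb2: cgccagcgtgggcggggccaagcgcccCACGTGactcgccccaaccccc
Pfkm: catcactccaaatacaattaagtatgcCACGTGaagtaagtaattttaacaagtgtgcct
The shorter ACGTG was in 13 of 42 members (31.0%, against 19.7% of all promoters), and in 8 of 19 matched glycolysis members. TNAAGGTCA, the letters bound by estrogen-related receptors, was in 1 member, Tpi1, against 1.26% of all promoters. The Ldha and Pfkfb2 windows lie inside the gene positions given above, so the start sites used for them are not the outermost ones. A match is a description of these windows and no site was measured.

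In the TCA cycle and malate-aspartate shuttle, 6 of 15 members rose in RNA, 4 fell and 5 did not pass. That is 66.7% called, near the 63.7% of genes with a mean of at least 1000 RNA reads (49.4% of all genes). Cs, citrate synthase at the entry of the cycle (chromosome 10, 128337727 to 128362482), had 13554, 13400, 14320 and 13352 RNA reads in wild type and 19227, 18838, 21327, 20238 and 19753 in knockout. The genotypes were separate, with a log2 fold change of 0.54 ± 0.05 (SE; adjusted p = 7.03e-06, limma). Cs footprints were 44902 to 66360 in wild type and 56776 to 73023 in knockout, with overlap and a log2 fold change of 0.15 ± 0.13 (SE; adjusted p = 0.857, limma).

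NAD-dependent isocitrate dehydrogenase, which is made of the catalytic subunit Idh3a and the regulatory subunits Idh3b and Idh3g, changed in all 3 RNAs. Idh3a rose by 0.16 (adjusted p = 0.0107, limma), from 6073 to 6435 reads in wild type to 6652 to 7270 in knockout. Idh3b (chromosome 2, 130279309 to 130284451) had 15249, 16402, 16915 and 16918 in wild type and 12412, 12752, 14557, 14036 and 12672 in knockout, a fall of 0.30 (adjusted p = 0.00156, limma), and it overlaps Nop56. Idh3g (X, 73778963 to 73786897) had 16510, 15604, 14722 and 15791 in wild type and 10378, 10439, 11091, 12640 and 11112 in knockout, a fall of 0.49 (adjusted p = 6.86e-05, limma). None of these RNAs overlapped between genotypes. Idh3g footprints went the other way, at 23866, 19145, 21350 and 24091 in wild type and 26096, 27042, 28261, 28571 and 25247 in knockout. Every knockout heart lay above every wild-type heart there, but the log2 fold change of 0.30 ± 0.11 (SE) did not pass, at an adjusted p of 0.851 in limma. Footprints of Idh3a and Idh3b overlapped, with log2 fold changes of -0.06 and -0.07.

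Succinyl-CoA ligase and the shuttle enzymes completed the step. Sucla2, the ADP-forming subunit (chromosome 14, 73552786 to 73596144), had 15614, 15671, 15364 and 19023 RNA reads in wild type and 10392, 10702, 11767, 11382 and 11681 in knockout. The genotypes were separate, at a log2 fold change of -0.55 ± 0.07 (SE; adjusted p = 6.52e-05, limma), with wild-type heart 4 the highest. Its partner Suclg1 and the GDP-forming Suclg2 differed by 0.13 and -0.13 without passing (adjusted p = 0.0999 and 0.129, limma), and Sucla2 footprints were 30431 to 33166 and 28997 to 40384. The mitochondrial aspartate aminotransferase Got2 (chromosome 8, 95864133 to 95888401) rose by 0.41 in RNA (adjusted p = 7.30e-05, limma), from 9381 to 10319 reads to 12700 to 14346. Cytosolic malate dehydrogenase Mdh1 (chromosome 11, 21556692 to 21571934) rose by 0.34 (adjusted p = 0.000489, limma), from 24339 to 25612 reads to 29677 to 33871. Footprints of Got2 were 6099 to 10439 and 8458 to 13355 and those of Mdh1 112766 to 144432 and 131282 to 151213, all overlapping. Of the 4 shuttle enzymes, Got2, Mdh1 and Got1 passed in RNA and Mdh2 differed by 0.08 (adjusted p = 0.245, limma). The Got1 rise of 0.18 (adjusted p = 0.0430, limma) was lost, at adjusted p between 0.0577 and 0.120, when any single heart other than wild-type 1 was left out.

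The other calls of the step were Idh2, the NADP-dependent isocitrate dehydrogenase, and Dlst, the E2 of the oxoglutarate dehydrogenase complex. Idh2 RNA was higher by 0.28 (adjusted p = 0.0350, limma) with overlapping hearts, and this call was lost at adjusted p between 0.0531 and 0.105 without wild-type heart 1, 2 or 3 or knockout heart 8 or 9. Dlst RNA fell by 0.16 (adjusted p = 0.010, limma). Ogdh, the E1 of that complex, differed by -0.05, and Fh1, fumarase, by 0.16 (adjusted p = 0.0827, limma).

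**Figure D3:**
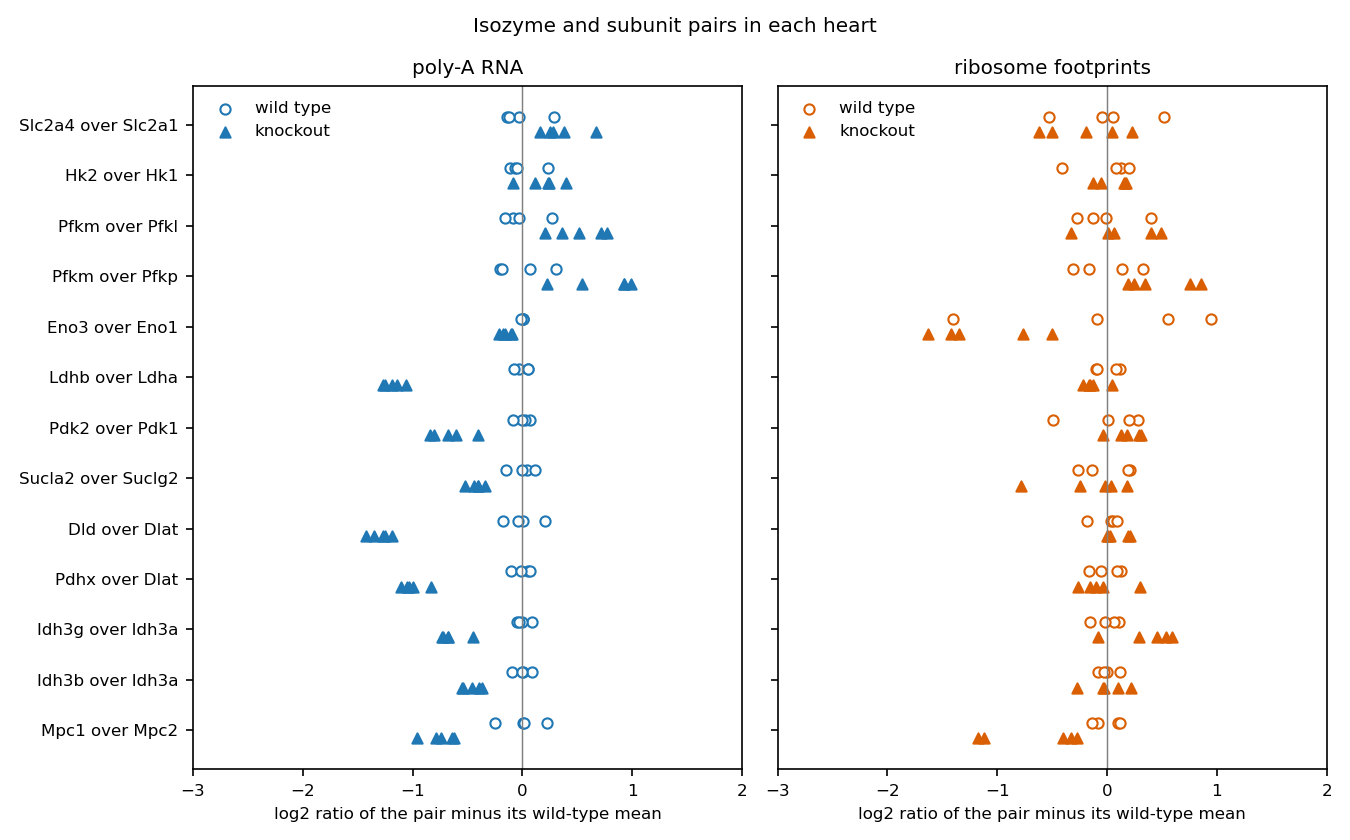
Log2 ratio of 13 of the 14 isozyme or subunit pairs in each heart, minus the pair's wild-type mean, for RNA (left) and footprints (right), with open circles for wild-type and filled triangles for knockout hearts; Pgam2 over Pgam1 is left out because Pgam1 footprints are listed at 0 in several hearts. In RNA the knockout hearts of 9 pairs lie left of all wild-type hearts, by means of -0.15 to -1.30, and those of the other 4 overlap, with means of 0.18 to 0.72, while in footprints only Mpc1 over Mpc2 is separate.

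Footprints did not pass the test for any member. The count was 0 of 43 by limma (Pgam1 was below the minimum mean of 10), against 0.02% of all genes, with 3 members at an unadjusted p below 0.05. edgeR and DESeq2 on the whole footprint reads and the authors' deposited table also called 0 members, each with 2 at an unadjusted p below 0.05. The 3 by limma were Mpc1, Idh3g and Eno1, whose log2 fold change of 1.10 ± 0.40 (SE; adjusted p = 0.851, limma) came with hearts spread from 186 to 946 in wild type and 382 to 1230 in knockout. Its near-identical relative Eno1b had 76.4, 51.8, 91.9 and 1.52 footprints in wild type and 104, 55.7, 0, 0.987 and 0 in knockout. Eno1b was lowest in wild-type heart 4 and knockout hearts 8, 9 and 10, where Eno1 was highest. How reads were divided between these genes was not tested. The members' median footprint log2 fold change was 0.09, against 0.00 over all genes and 0.04 over genes with a mean of at least 1000 RNA reads. Genotypes were separate for 2 members, Mpc1 and Idh3g (4.65%, against 1.6% of all genes). Footprint intervals were wider than RNA intervals, with a median 95% half-width of 0.25 against 0.13 on the log2 scale, so small footprint changes were not detectable at this replication. The 95% footprint interval held 0 for 40 of 43 members. Across the 43 members, log2 fold changes in footprints and RNA had a Pearson r of 0.22 and a Spearman rho of 0.13, and 20 had the same sign. Over the 9974 genes tested in both assays r was 0.07 and rho 0.04, and 5046 had the same sign. These are genes of the same 9 hearts, and not independent replicates.

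Efficiency was called for 11 of 43 members, or 25.6%, against 14.4% of all genes and 24.4% of genes with a mean of at least 1000 RNA reads. It rose for 7 (Gpi1, Ldhb, Dld, Pdhx, Pdk2, Idh3g and Sucla2), against 7.83% of all genes, and fell for 4 (Slc2a4, Tpi1, Mpc2 and Dlat), against 6.55%. Of the 2079 genes with a mean of at least 1000 RNA reads, 373 rose and 135 fell. Rises thus also outnumbered falls among abundant genes. All 11 were called in RNA in the opposite direction. The same RNA values enter both tests, so the opposite directions are not independent evidence. The largest rise was that of Pdk2, from 0.940, 0.939, 0.923 and 0.871 footprint reads per RNA read in wild type to 1.87, 2.03, 1.82, 1.78 and 1.54 in knockout, or 0.97 ± 0.10 on the log2 scale (SE; adjusted p = 9.51e-06, limma). Dld went from 1.28 to 1.90 in wild type to 2.98 to 3.37 in knockout, at 0.97 ± 0.13 (SE; adjusted p = 6.70e-05, limma). Idh3g rose by 0.79 (adjusted p = 0.000139, limma), Ldhb by 0.70 (adjusted p = 0.00182, limma), Sucla2 by 0.57 (adjusted p = 0.00759, limma) and Pdhx by 0.54 (adjusted p = 0.0110, limma). In each of these 6 genes every knockout heart lay above every wild-type heart. Slc2a4 had the largest fall, from 5.71, 6.51, 5.49 and 4.76 in wild type to 3.89, 3.41, 3.07, 3.08 and 3.38 in knockout, or -0.74 ± 0.12 (SE; adjusted p = 0.000571, limma). Mpc2 fell by 0.68 (adjusted p = 0.00577, limma), Tpi1 by 0.46 (adjusted p = 0.00640, limma) and Dlat by 0.41 (adjusted p = 0.00869, limma), again with separate hearts. The same values gave these calls, so the separation is no further evidence, and its share over all genes was not computed. Pdha1, Idh2 and Dlst also had separate hearts in efficiency without passing this fit.

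Gpi1 was the weakest of the 11 efficiency calls. It rose by 0.63 (adjusted p = 0.0391, limma) with overlapping hearts, and the call was lost without any of 6 single hearts (wild-type 2, 3 or 4, knockout 6, 8 or 9) at adjusted p between 0.0516 and 0.0923. With the heart as a block pairing its 2 libraries, 15 members were called, 8 higher and 7 lower, against 18.6% of all genes (9.92% higher, 8.65% lower). No share among abundant genes was computed for this fit. The block added Dlst, with an adjusted p in limma of 0.0406 in place of 0.0827, to the rises. It added Eno3 (0.0173 in place of 0.0514), Mpc1 (0.0439 in place of 0.172) and Cs (0.0246 in place of 0.0731) to the falls. Under quantile normalization 5 members were higher and 10 lower, without the rises of Gpi1 and Sucla2 (adjusted p = 0.0716 and adjusted p = 0.0605, limma), and without wild-type heart 2, the shallowest footprint library, 6 were higher and 8 lower. In the authors' deposited table, 14 of the 44 members carry the tag buffered, against 15.2% of all genes, and the other 30 are tagged unchanged. The share of the tag among abundant genes was not computed.

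Some glycolysis members had footprint values out of proportion to their RNA in wild type. The ratio of footprint to RNA reads was 0.00406 ± 0.00469 for Pgam1, 0.0175 ± 0.00647 for Gapdh, 0.0224 ± 0.00893 for Pgk1 and 0.269 ± 0.241 for Eno1 (SD, n = 4), against a median of 1.45 over all genes tested. Gapdh and Pgk1 lay at the 0.702 and 0.852 percentiles of all genes, and Idh3a had the highest ratio of the members at 6.29 ± 0.340 (SD, n = 4). The annotation names 3 pseudogene copies each for Gapdh, Pgk1 and Aldoa and 2 for Pgam1, and none for Eno1. Near-identical copies are also listed as genes of their own. Pgk1-rs7 RNA was 5019 ± 259 in wild type (SD, n = 4), beside 5025 ± 276 for Pgk1, and its footprints were at 0 in all 9 libraries. Eno1b had 1515 ± 174 RNA reads in wild type (SD, n = 4) against 2224 ± 73.1 in knockout (SD, n = 5), beside 1622 ± 71.3 and 2418 ± 128 for Eno1. The RNA rise of Eno1 (chromosome 4, 150236708 to 150248879), 0.57 ± 0.05 (SE; adjusted p = 7.11e-06, limma), and that of Gapdh, 0.46 ± 0.06 (SE; adjusted p = 7.65e-05, limma), therefore rest on reads whose origin is uncertain. Eno3, the muscle enolase (chromosome 11, 70653125 to 70662513), has no named copy but overlaps Pfn1, and its footprints were 62901 to 90327 in wild type and 61802 to 91149 in knockout. The part of copies in these ratios was not tested.

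**Figure D4:**
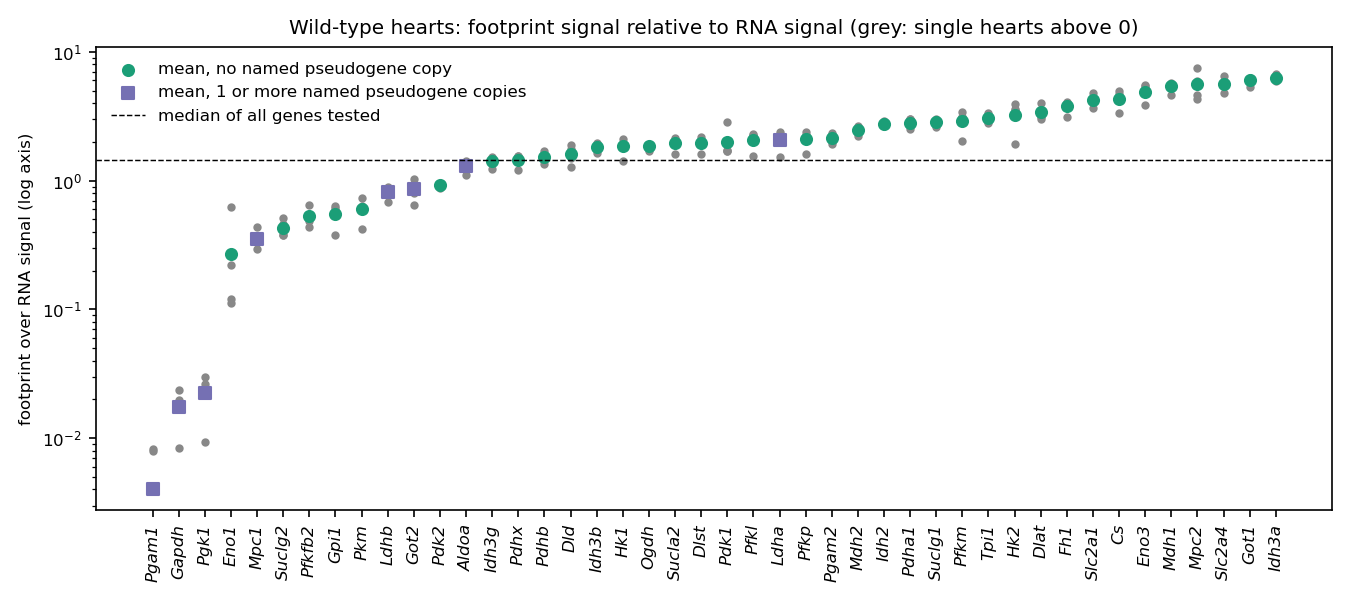
Ratio of footprint to RNA normalized reads of the 44 members in wild-type hearts on a log axis, with grey points for single hearts above 0, coloured points for the mean, and squares for genes with named pseudogene copies. Pgam1, Gapdh and Pgk1 lie below 0.03, far under the dashed median of all genes at 1.45, while most members lie between 0.4 and 6.3.

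Genes of the same pathway outside the 44, taken from a written list of 70, were found for 57. RNA of 24 was higher and of 8 lower (56.1% called, against 49.4% of all genes and 63.7% of those with a mean of at least 1000 reads), with a median log2 fold change of 0.17 against 0.01 over all genes, and none passed in footprints. The strongest rises were Slc25a11, the oxoglutarate carrier of the malate-aspartate shuttle, at 0.81 ± 0.06 (SE; adjusted p = 8.03e-07, limma), and the succinate dehydrogenase anchor subunits Sdhc at 0.71 ± 0.07 (SE; adjusted p = 1.54e-05, limma) and Sdhd at 0.54 ± 0.06 (SE; adjusted p = 1.77e-05, limma). Slc25a11 RNA was 3773 to 3952 in wild type and 6213 to 7416 in knockout, and its footprints were 18220 to 22855 and 19828 to 21701. The strongest falls were Hif1a, the oxygen-sensing regulator of glycolytic genes, by 0.84 (adjusted p = 1.71e-05, limma), Pgm2, a phosphoglucomutase, by 0.89 (adjusted p = 2.08e-05, limma), and Tigar, a fructose-2,6-bisphosphatase, by 0.45 (adjusted p = 0.00171, limma). Efficiency of 4 of the 57 was called in the main fit (7.02%, against 14.4% of all genes). Hif1a rose by 0.81 (adjusted p = 0.00553, limma), and Slc25a11, Sdhc and Sdhd fell by 0.74, 0.60 and 0.58 (adjusted p = 0.000132, adjusted p = 0.00751 and adjusted p = 0.00171, limma). As in the members, each of these 4 went opposite to its RNA. With the heart as a block these 4 passed again, and so did Txnip and Aco1 as rises. Ogdhl, Slc16a1, Sdhb, Ldhd and Bsg passed as falls. Limma adjusted p of these additions ran from 0.000460 for Ogdhl (0.264 in the main fit) to 0.0445 for Bsg. The block called 18.6% of all genes, so the share of 7.02% holds for the main fit only.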

How the data were processed

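Poly-A RNA and ribosome footprints were measured in 18 libraries from 9 hearts. TRIzol was used for RNA, a TruSeq kit (which keeps no strand) for RNA libraries and a NEXTflex small RNA kit for footprint libraries, per the labels' protocols. The tools named are STAR 2.7.1a, HTSeq and DESeq2, on GRCm38 (mm10), per the submitters' processing notes, which give them no role or order. The RNA and footprint tables deposited by the authors hold a normalized read signal per library, and their deposited efficiency table gives a ratio, footprint signal over RNA signal, per heart. Each deposited table also gives a log2 fold change and p-values by the authors, used only where their table is named. The deposited efficiency fold change has wild type over knockout, and its sign was turned so that all directions here are knockout over wild type. Of 10597 listed identifiers, 10560 matched RefSeq gene names and 37 did not.

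limma 3.58.1 in R 4.3.3 was fitted to log2(value + 1) of all genes with a mean of at least 10, with its mean-variance trend, and the efficiency was the genotype by assay interaction over all 18 libraries. On this scale the change of low genes is understated. Benjamini-Hochberg adjustment ran over all genes tested, with a threshold of 0.05. The fit was tested on simulated data in which all libraries were drawn independently. That test therefore does not cover the link between the 2 libraries of a heart. Nothing in the labels says whether mice came from separate litters or cages, so the RNA and footprint p-values measure the spread between these hearts. The main efficiency fit has no term for the heart and treats its 2 libraries as independent. Only the fit with the heart as a block measures the spread of efficiency between hearts. Whole footprint reads were recovered from the signal for all values (tolerance 0.01), and edgeR 4.0.16 and DESeq2 1.42.0 were run on them as alternatives. Other alternatives were the pseudocount, the filter on low values, TMM factors, quantile normalization, leaving out each heart, and the heart as a block. Per the labels, libraries that share a number share a heart, which pairs them. This was checked over 3233 genes: residuals from the genotype mean correlated at 0.277 to 0.662 between the libraries of a heart, and 7 of 9 RNA libraries correlated best with their own footprints. No 2 libraries of a group held the same values. The members and lists were chosen with earlier results of these data known. Values per heart, their ranges or a mean and SD are given for members called in efficiency. The same holds for up to 3 members per step and direction with the smallest RNA adjusted p. Pairs described are given as log2 ratios or their differences between genotypes. Promoter sequences are from RefSeq, GRCm38.p6.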

Additional observations from a re-analysis of the deposited data

Results flagged for a closer look

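Of 176 groups of hearts tested for a single sample far from the others (members by assay and genotype), 13 held one, where chance gives about 1 in 20 groups. In RNA, knockout heart 8 had 43456 Aldoa reads against 44682 to 45022 in the other knockout hearts. The same heart had 23507 Eno3 reads against 20676 to 21337. Knockout heart 10 had 16526 Gapdh reads against 15313 to 15658. Wild-type heart 4 had 19023 Sucla2 reads against 15364 to 15671. Wild-type heart 1 had 11393 Got1 reads against 9089 to 9160. In footprints, wild-type heart 2, the shallowest library, had 6813 Gpi1 reads against 10765 to 11557 and 96.6 Gapdh reads against 224 to 240. Knockout heart 6 had 20439 Slc2a4 reads against 15528 to 16844, and 12.7 Pgam1 reads against 0 to 3.31. Knockout heart 8 had 20.8 Pgk1 reads against 113 to 145. Knockout heart 10 had 12583 Mpc2 reads against 9546 to 10425, and 15133 Pdhb reads against 12011 to 12824. Knockout heart 9 had 2193 Suclg2 reads against 1283 to 1547.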

How the results depend on the processing

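With quantile normalization, 21 members were higher and 9 lower in RNA, in place of 17 and 14. Leaving out 1 heart at a time gave 14 to 18 higher and 12 to 15 lower. TMM factors, other pseudocounts and no filter left both counts as they were. Ogdh RNA turned from -0.05 to 0.13 under quantile normalization (limma adjusted p = 0.0399). Footprint calls among the members numbered 0 under every alternative, and over all genes 2, with 0 without the filter, 6 by DESeq2, 6 in the authors' deposited table and 0 to 3 without 1 heart. Efficiency gave 7 higher and 4 lower, against 5 and 10 under quantile normalization, 7 and 7 in the authors' deposited table, and 6 to 7 and 4 to 8 without 1 heart, the 8 lower without wild-type heart 2. The replicate block, which pairs the libraries of a heart, gave 8 higher and 7 lower. Over all genes, 5230 were called in RNA (4772 to 5064 without 1 heart) and 1434 in efficiency (993 to 1220). Of 616 member values in RNA recomputed under an alternative, 577 kept their side of the threshold without a called value changing sign, as did 602 of 602 in footprints and 621 of 645 in efficiency. Among these, 12, 21 and 13 values changed sign with no call in either fit. The cause of each change was not tested. Footprints per codon, planned for comparing isozyme levels, were not run because protein lengths were not used here, and log2 ratios of pairs, chosen after seeing the data, took their place. Footprint depth and spread limit what can be seen.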
